A study of Homo sapiens with 10 samples.

Results

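The genes followed here are 42 named members of the ATF4 response, the best-known transcriptional output of the integrated stress response. They were taken from the count table by gene symbol, each symbol matched 1 of the 46427 genes listed, and all 42 were among the 19465 genes with enough counts to be tested. They are grouped by role into 8 transcription factors, 8 feedback regulators and stress effectors, 5 serine and one-carbon enzymes, 5 other amino acid enzymes, 6 amino acid transporters, and 10 genes of cytosolic tRNA charging and export.

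RNA was sequenced from neurospheres (free-floating cell clusters) grown from ReNcell VM, so every library comes from a single immortalised line of human neural progenitors. All 5 groups were left to differentiate for 6 days on laminin in medium with N-2 supplement, and each library pooled 6 neurospheres. The control group received the DMSO vehicle at 0.1%, and the other 4 groups received DEP, DProP, DPP or Mix, each labelled 100 µM. Whether the treated wells also held DMSO is not stated in the labels. Each group has 2 libraries. The study is about short-chain phthalates, diesters that soften plastics and carry fragrance, and asks whether linear members that differ from DEP in carbon number disturb neural development. The labels do not spell out DProP, DPP or the make-up of Mix, so no structure is assigned to them here. Nothing in them states that a group's 2 libraries were separately cultured. The p-values therefore reflect library-to-library spread, which may be purely technical.

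The integrated stress response begins when one of several kinases phosphorylates the translation initiation factor eIF2. General protein synthesis falls, while translation of a few messages, ATF4 among them, rises. The ATF4 protein then pairs with C/EBP factors and turns on genes for amino acid synthesis, import and tRNA charging, and, under lasting stress, genes such as DDIT3 (CHOP) and TRIB3. ATF4 is controlled largely at translation, so the level of its mRNA is not a measure of its protein. Protein and phosphorylation were not analysed here.

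ATF4 and C/EBP partners bind a composite element written TGATGNAA, or TTNCATCA when read on the other strand. It was searched, on both strands, in promoter windows of 300 bases from RefSeq on GRCh38.p14, 250 before to 50 after an annotated start. A single window per gene was used, and its start can lie inside the gene's full span, as for ASNS. In this set 37 members had an entry. EIF4EBP1, NUPR1, PSPH, PYCR1 and SHMT2 had none. The motif was present in 10 of the 37 windows (27.0%), against 1003 of all 27305 windows of the RefSeq set (3.67%). That set was not limited to the genes tested here. The members were listed because they are ATF4 response genes, so a higher share follows from the choice and is not a finding from these libraries. The stretches of 6 of these genes are shown. They carried the letters and were called higher in DPP, the treatment with the most calls. Of the 27 members whose window lacked the motif, 11 were also called higher in DPP, GDF15, MTHFD2 and SLC1A5 among them. Whether the motif goes with the rise was not tested. The other carriers were AARS1, MARS1, NARS1 and SLC3A2. Each is written 5′ to 3′ on the gene's own strand with the motif in capitals. A match describes the letters and does not show binding.
ASNS: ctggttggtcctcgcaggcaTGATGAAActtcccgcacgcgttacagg
SLC7A1: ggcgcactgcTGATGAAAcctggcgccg
ATF3: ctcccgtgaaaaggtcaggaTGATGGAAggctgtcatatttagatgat
CHAC1: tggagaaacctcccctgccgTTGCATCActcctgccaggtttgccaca
IARS1: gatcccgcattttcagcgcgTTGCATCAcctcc
CARS1: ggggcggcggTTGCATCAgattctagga
The ASNS stretch lies at chr7:97872449-97872496 and that of SLC7A1 at chr13:29595664-29595691, both on the minus strand. The ATF3 stretch lies at chr1:212565196-212565243 and that of CHAC1 at chr15:40953242-40953289, both on the plus strand. The IARS1 stretch lies at chr9:92293698-92293730 and that of CARS1 at chr11:3057408-3057435, both on the minus strand. ASNS, SLC7A1 and ATF3 carry the TGATGNAA reading on the gene's strand, and CHAC1, IARS1 and CARS1 the TTNCATCA reading. The SLC7A1 motif begins past the start, at base 8, and that of CARS1 at base -2, so it crosses the start.

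Total counts ran from 57222381 to 72973100 per library. Vehicle and treated libraries differed in the makeup of their counts. What part the library preparation had in this was not tested. Mitochondrial mRNA took 0.0255% to 0.0343% of the counts in the 2 vehicle libraries against 0.0825% to 0.107% in treated libraries, and the nuclear RNA MALAT1 took 0.946% to 1.25% against 0.342% to 0.394%. Summed progenitor markers (9 genes) were at 7515 to 7588 CPM (counts scaled to a common library total) in vehicle and 4447 to 4892 in treated libraries, and summed astrocyte markers (8 genes) at 9195 to 9422 and 4848 to 5585. Summed neuron markers (10 genes) were at 2124 to 2187 CPM in vehicle, 1742 to 1766 in Mix, 1412 to 1552 in DEP, 1268 to 1320 in DProP and 1113 to 1218 in DPP. TUBB3, DCX, MAP2, STMN2, ELAVL3, ELAVL4, SYT1 and INA lay below vehicle in both DPP libraries, and NEFL and RBFOX3 above it. NEFL was at 18.7 and 17.6 CPM in vehicle, 29.6 and 34.3 in DPP, and 9.42 and 10.3 in Mix. SYT1 was at 67.2 and 68.6 in vehicle and 84.3 and 78.8 in Mix. The 5 microglial markers summed to at most 0.453 CPM, with all 5 under 1 CPM and 2 at 0. Summed endothelial markers (5 genes, 1 at 0) were at 46.9 to 51.1 CPM in vehicle, 26.9 to 27.1 in Mix, 22.8 to 24.9 in DEP, 12.2 to 14.3 in DProP and 7.25 to 15.3 in DPP. Oligodendrocyte-lineage markers (8 genes, 4 under 1 CPM) summed to 929 to 930.0 CPM in vehicle and 431 to 618 in treated libraries, and mesenchymal markers (8 genes, 1 at 0) to 172 to 173 and 71.9 to 98.9. Astrocyte markers also differed among themselves in Mix. SLC1A2 was at 28.1 and 27.2 CPM in vehicle and 66.6 and 38.9 in Mix, and GFAP at 4769 and 4550 in vehicle and 2459 and 2394 in Mix. In bulk RNA, fewer cells of a type, less RNA per cell and changes in single marker genes cannot be told apart. The part of these differences in the results that follow was not tested.

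Scaled by trimmed mean of M values (TMM), the members moved in both directions against vehicle, and most often upward under DPP. A gene was called at an adjusted p under 0.05 over all genes tested (edgeR quasi-likelihood test). In DPP, 18 members rose and 5 fell, where 16.7% of all genes were called higher and 19.5% lower. In DProP, 14 rose and 6 fell, with 14.7% and 17.5% of all genes. DEP gave 5 higher and 7 lower (10.1% and 13.5% of all genes), and Mix 6 higher and 5 lower (9.71% and 10.7%). As shares of the 42, the counts for DEP and Mix were near these backgrounds in both directions, and in DPP and DProP the share called higher was above its background. Members and lists were chosen with earlier results of these data known, so shares here and below may partly follow from that choice. The median member differed from vehicle by 0.19 (log2) in DPP, 0.15 in DProP, 0.06 in Mix and -0.09 in DEP, where the median of all genes was 0.02 in the first 3 and 0.01 in DEP.

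All 4 comparisons share the same 2 vehicle libraries and depend on the scaling. With library size alone the median of all genes moved up by 0.14 to 0.18, and the members' calls became 26 higher and 3 lower in DPP, 24 and 3 in DProP, 12 and 3 in DEP, and 13 and 3 in Mix. The calls of a fall that library size alone ended were those of ATF5 and JDP2 in DPP, NARS1, PYCR1 and SARS1 in DProP, NARS1, PPP1R15A, SHMT2 and SLC7A5 in DEP, and NARS1 and PHGDH in Mix. After a correction for GC content and length the counts were 23 and 4, 19 and 5, 6 and 4, and 4 and 5, for DPP, DProP, DEP and Mix. Single libraries also moved these counts. Without vehicle 1, 11 members rose in DPP, 9 in DProP, 3 in DEP and 1 in Mix. Without vehicle 2, 2 rose in Mix and 4 fell in DEP. Without DProP 1, 9 rose and 3 fell in DProP, and without DProP 2, 3 fell. Without DPP 2, 3 fell in DPP. Without DEP 1, 2 rose in DEP, and without DEP 2, 3 fell. Without Mix 1, 1 rose and 3 fell in Mix.

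**Figure D1:**
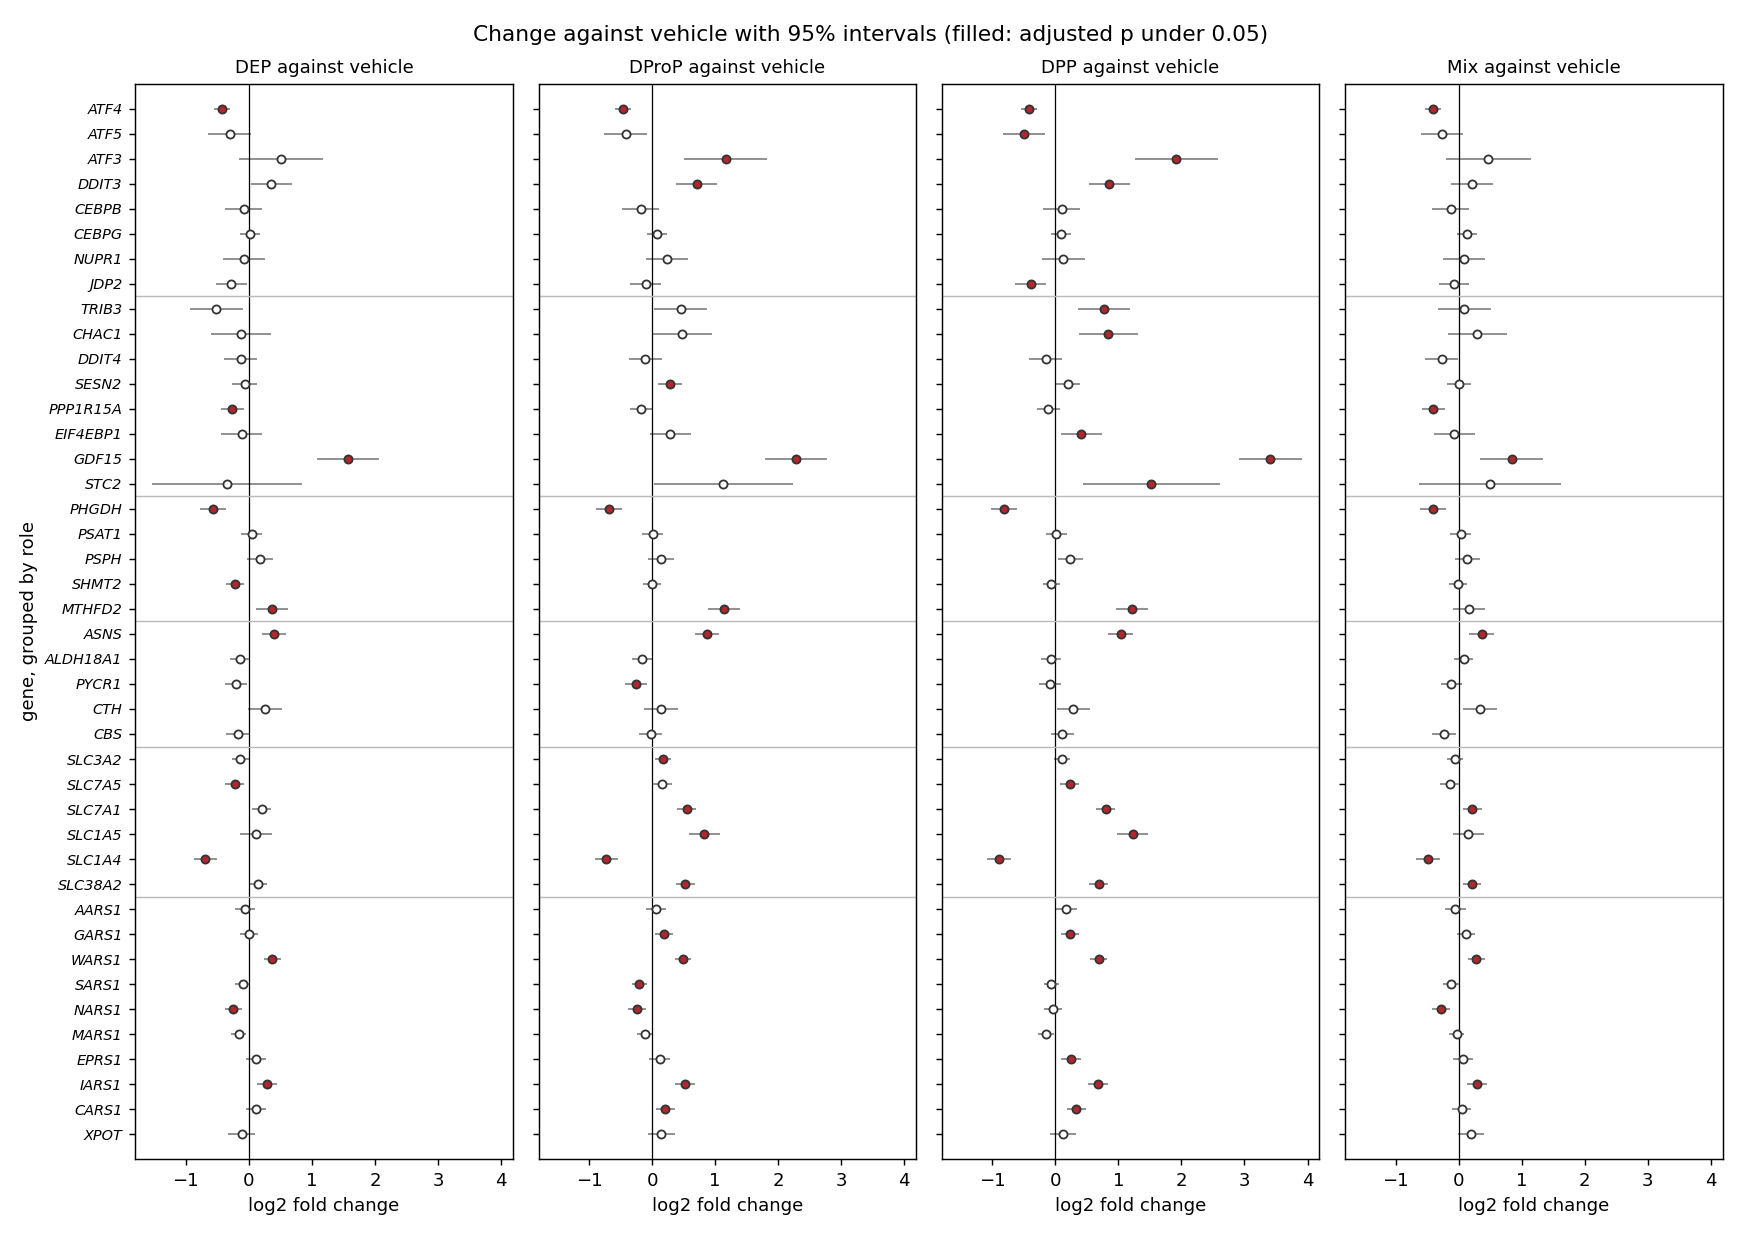
Each panel plots the log2 fold change of the 42 genes in 1 treatment against vehicle (x axis, the same in all panels; lines are 95% intervals from the edgeR fit, filled points passed an adjusted p of 0.05), with grey lines between role groups. GDF15 lies farthest to the right in every panel, while ATF4, PHGDH and SLC1A4 lie left of 0 in all 4.

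ATF4 itself (chr22:39520559-39522686, GRCh38), the factor that names the group, was lower in every treatment. Its level was 265 and 272 CPM in the vehicle libraries, 196 and 204 in DEP, 194 and 195 in DProP, 202 and 200.1 in DPP, and 195 and 209.6 in Mix. All 8 treated libraries lay below both vehicle libraries, within 194 to 209.6. It fell by 0.42 ± 0.06 (log2, SE) in DEP, 0.47 ± 0.06 in DProP, 0.42 ± 0.06 in DPP and 0.41 ± 0.06 in Mix, with adjusted p between 0.00013 and 0.000528 (edgeR). These calls held under every alternative run. The 4 treatments were not separated for ATF4 (adjusted p = 0.868 among them, edgeR), and the 95% interval of DPP minus DEP ran from -0.12 to 0.13.

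**Figure D2:**
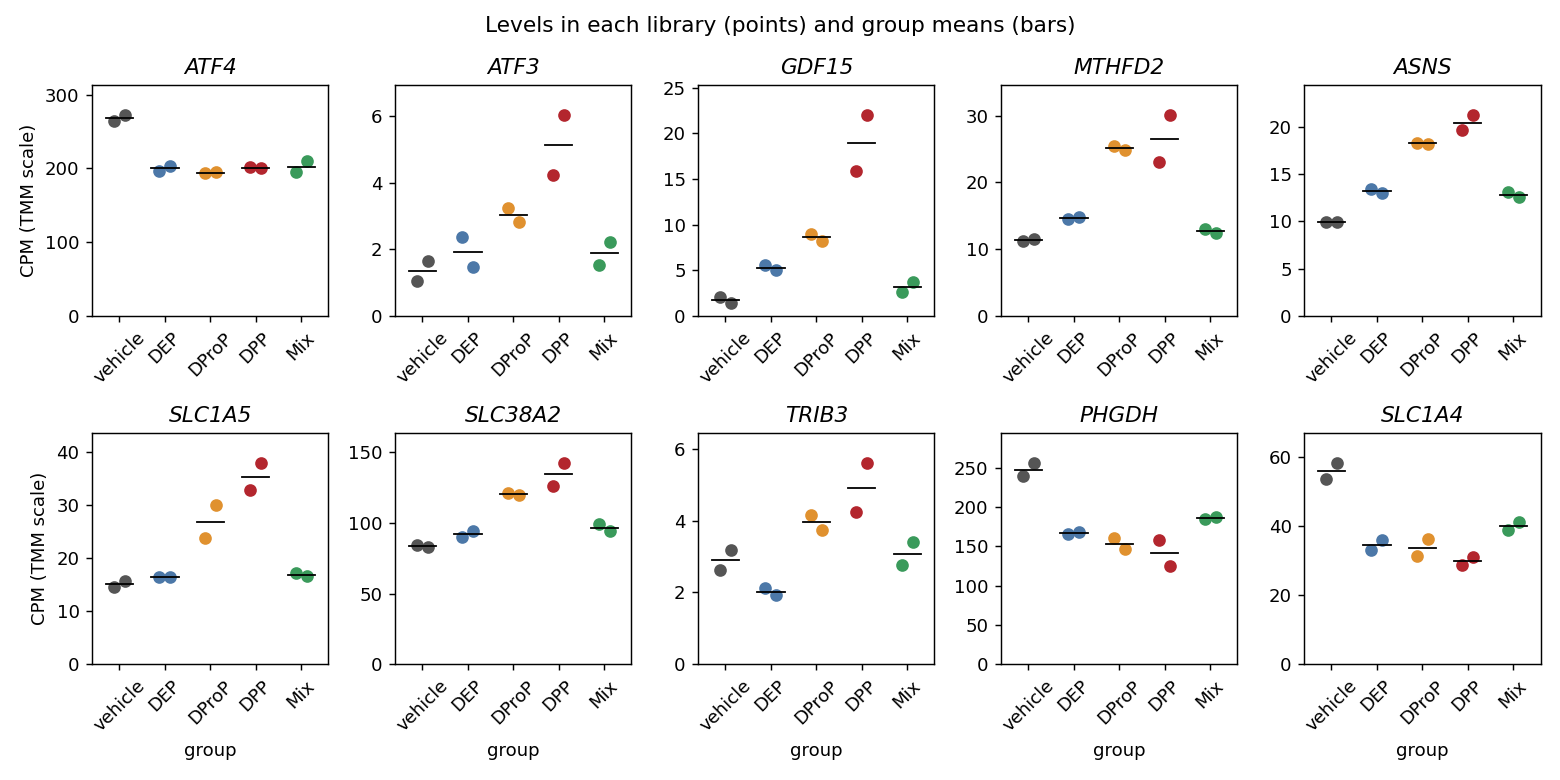
Points are the 2 libraries of each group and bars the group means, in CPM on the TMM scale with the y axis from 0, for 10 of the genes. ATF4, PHGDH and SLC1A4 are highest in vehicle, and the other 7 are highest in DPP, where GDF15 stands at 15.9 and 22.0 CPM.

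Of the other transcription factors, ATF3 and DDIT3 rose in DProP and DPP and in neither DEP nor Mix by the test. ATF3 (chr1:212565407-212620777), a stress-induced bZIP factor, was at 1.06 and 1.66 CPM in vehicle, 2.39 and 1.49 in DEP, 3.26 and 2.83 in DProP, 4.23 and 6.03 in DPP, and 1.54 and 2.23 in Mix. Both DProP and both DPP libraries lay above all the others, while DEP and Mix overlapped vehicle. It rose by 1.92 ± 0.30 in DPP (adjusted p = 0.00056, edgeR) and by 1.16 ± 0.30 in DProP (adjusted p = 0.0127), the latter reaching only 0.0968 without vehicle 1 and 0.0569 without DProP 1. DDIT3, which encodes the pro-apoptotic factor CHOP, was at 4.59 and 4.39 CPM in vehicle, 5.67 and 5.83 in DEP, 8.25 and 6.45 in DProP, 7.52 and 8.74 in DPP, and 4.86 and 5.54 in Mix. Every treated library lay above vehicle. The rises of 0.86 ± 0.15 in DPP and 0.71 ± 0.15 in DProP passed the test (adjusted p = 0.00105 and 0.00422). The annotated ends of DDIT3 and MARS1 overlap by 65 bases, and no source used here states whether the counting kept strand. MARS1 was not called against vehicle in any treatment.

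ATF5, a relative of ATF4 that is likewise regulated at translation, and JDP2, a repressor of AP-1 sites, were called lower in DPP, by 0.50 ± 0.15 and 0.39 ± 0.11 (adjusted p = 0.0249 and 0.0164, edgeR). ATF5 lay at 11.3 and 16.0 CPM in vehicle and at 9.71 and 9.55 in DPP. The gene overlaps NUP62 by 599 bases. Its call ended without vehicle 2, DPP 1 or DPP 2 (adjusted p = 0.277, 0.0753 and 0.111), and that of JDP2 without vehicle 1 or DPP 2 (0.0682 and 0.103). CEBPB and CEBPG, the C/EBP partners, and NUPR1, a stress-response chromatin cofactor, were not called in any treatment. CEBPG ranged from 68.4 to 79.9 CPM over the 10 libraries, CEBPB from 15.7 to 22.7 and NUPR1 from 7.17 to 10.3.

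Among stress effectors GDF15 (chr19:18386158-18389176), which encodes a secreted hormone that reports cellular stress to the brainstem, had the largest change of any member in each treatment. It was at 2.08 and 1.46 CPM in vehicle, 5.55 and 5.02 in DEP, 9.04 and 8.25 in DProP, 15.9 and 22.0 in DPP, and 2.62 and 3.78 in Mix. The groups did not overlap, and their order from low to high was vehicle, Mix, DEP, DProP and DPP. The rise was 10.6-fold in DPP (log2 3.41 ± 0.23, adjusted p = 3.16e-06, edgeR), 4.86-fold in DProP (2.28 ± 0.23), 2.97-fold in DEP (1.57 ± 0.23) and 1.79-fold in Mix (0.84 ± 0.23, adjusted p = 0.0245). The Mix call ended without vehicle 2 or Mix 2 (adjusted p = 0.157 and 0.159), and also under limma-voom (0.103) and with only the compared groups fitted (0.0588). The other 3 calls held under every alternative run.

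TRIB3, a pseudokinase that feeds back on ATF4, was at 2.61 and 3.17 CPM in vehicle, 2.12 and 1.92 in DEP, 4.17 and 3.74 in DProP, 4.24 and 5.60 in DPP, and 2.76 and 3.39 in Mix. The DEP libraries were the lowest of all and the DPP libraries the highest. Only the difference in DPP passed the test against vehicle (0.77 ± 0.19, adjusted p = 0.00829, edgeR). The value in DEP was -0.51, and it was not called. CHAC1, a glutathione-degrading enzyme, was at 2.69 and 3.33 CPM in vehicle, 2.85 and 2.67 in DEP, 5.01 and 3.40 in DProP, 4.56 and 6.21 in DPP, and 3.79 and 3.58 in Mix. It rose in DPP by 0.84 ± 0.21 (adjusted p = 0.00938). Both DPP calls ended without vehicle 1 (adjusted p = 0.0687 for TRIB3 and 0.0775 for CHAC1) and without DPP 2 (0.0832 and 0.0919).

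The remaining effectors changed little or near the limit of detection. EIF4EBP1, which encodes the translation repressor 4E-BP1, was called higher in DPP (0.41 ± 0.15, adjusted p = 0.0468, edgeR), a call lost without vehicle 1, vehicle 2 or DPP 1 (adjusted p = 0.135, 0.141 and 0.298). It was also lost with no filter, with limma-voom and DESeq2, with the replicate block, and with only the compared groups fitted (0.0508 to 0.0682). The secreted glycoprotein gene STC2 was at 0.184 to 0.984 CPM over all libraries, and its call in DPP (1.52 ± 0.50, adjusted p = 0.0323) was lost without vehicle 1, vehicle 2 or DPP 2 (0.0731, 0.130 and 0.290). SESN2, a leucine sensor that restrains mTORC1, was called higher in DProP (0.28 ± 0.09, adjusted p = 0.0309) and lost the call without any 1 of the 4 libraries compared (0.0678 to 0.144). PPP1R15A (GADD34), which directs the phosphatase that reverses eIF2 phosphorylation, went the other way. It was at 56.4 and 57.0 CPM in vehicle, 49.0 and 45.7 in DEP, 50.6 and 50.2 in DProP, 50.9 and 54.2 in DPP, and 38.9 and 46.8 in Mix. All treated libraries lay below vehicle, and the call was made in Mix (fell by 0.40 ± 0.08, adjusted p = 0.00597) and in DEP (fell by 0.26 ± 0.08, adjusted p = 0.0405). The Mix call was lost without Mix 1 (0.0596), and that in DEP without any 1 of the 4 libraries compared (0.0887 to 0.220). DDIT4, an mTORC1 inhibitor, was not called against vehicle in any group.

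Serine and one-carbon enzymes did not move together. MTHFD2 (chr2:74198615-74217565), a mitochondrial folate enzyme, was at 11.3 and 11.6 CPM in vehicle, 14.6 and 14.9 in DEP, 25.5 and 24.8 in DProP, 23.1 and 30.1 in DPP, and 13.1 and 12.4 in Mix. DProP and DPP lay at about the same level and far above the rest, with no treated library as low as vehicle. The rise was 2.32-fold in DPP (log2 1.22 ± 0.12, adjusted p = 1.62e-05, edgeR) and 2.20-fold in DProP (1.14 ± 0.12). In DEP it was 1.29-fold (0.37 ± 0.12, adjusted p = 0.0376), and that call ended on leaving out vehicle 1, vehicle 2, DEP 1 or DEP 2 (adjusted p = 0.101 to 0.153). SLC4A5, which overlaps MTHFD2 by 1324 bases and had 64.7% of its mean count, rose by 0.52 in DPP, 0.44 in DProP and 0.45 in DEP, less than MTHFD2 in the first 2.

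PHGDH (chr1:119711934-119744215), which commits glycolytic carbon to serine, went down instead. It was at 239 and 256 CPM in vehicle, 166 and 168 in DEP, 160.2 and 146 in DProP, 158 and 124 in DPP, and 185 and 188 in Mix. No treated library reached the vehicle level. It fell by 0.81 ± 0.09 in DPP, 0.69 ± 0.09 in DProP, 0.57 ± 0.09 in DEP and 0.41 ± 0.09 in Mix (adjusted p = 7.34e-05, 0.000307, 0.00163 and 0.0106, edgeR), and the Mix call ended without vehicle 2 or Mix 1 (0.0719 and 0.0733). The next enzymes of the pathway, PSAT1 and PSPH, were not called in any treatment. PSAT1 ranged from 42.5 to 49.3 CPM over all 10 libraries, with the vehicle libraries at 42.5 and 48.4. SHMT2, the mitochondrial serine hydroxymethyltransferase, was called in DEP alone (fell by 0.22 ± 0.06, adjusted p = 0.0263). That call was lost without vehicle 2, DEP 1 or DEP 2 (0.146, 0.151 and 0.0796).

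Of the other amino acid enzymes ASNS (chr7:97851677-97928441), asparagine synthetase, rose in all 4 treatments. It was at 9.99 and 9.96 CPM in vehicle, 13.4 and 13.0 in DEP, 18.2 and 18.2 in DProP, 19.6 and 21.2 in DPP, and 13.1 and 12.6 in Mix. DEP and Mix shared one level above vehicle, and DProP and DPP lay above both. The rise was 2.05-fold in DPP (log2 1.03 ± 0.09, adjusted p = 7.95e-06, edgeR), 1.83-fold in DProP (0.87 ± 0.09), 1.32-fold in DEP (0.40 ± 0.09) and 1.29-fold in Mix (0.36 ± 0.09, adjusted p = 0.0138). The DEP call ended without DEP 1 (adjusted p = 0.0574), and the Mix call without vehicle 1, vehicle 2 or Mix 1 (0.0543, 0.0595 and 0.0928). A read-through gene that spans ASNS, CZ1P-ASNS, had 24.3% of its mean count and was not called against vehicle in any treatment. PYCR1, a proline synthesis enzyme, was called lower in DProP (fell by 0.25 ± 0.08, adjusted p = 0.0262). After the GC and length correction that difference was 0.00377, and the call was lost without any 1 of the 4 libraries compared (0.0505 to 0.162). ALDH18A1, also of proline synthesis, and CTH and CBS, the transsulfuration enzymes, were not called against vehicle.

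Amino acid transporters moved both ways, with 4 higher and 1 lower of 6 in both DPP and DProP. SLC1A5 (chr19:46774883-46788594), which carries glutamine into cells, was at 14.6 and 15.7 CPM in vehicle, 16.4 and 16.4 in DEP, 23.7 and 30.1 in DProP, 32.9 and 37.9 in DPP, and 17.2 and 16.6 in Mix. DEP and Mix lay just above vehicle, and DProP and DPP formed steps above them without overlap. It rose 2.34-fold in DPP (log2 1.22 ± 0.11, adjusted p = 1.51e-05, edgeR) and 1.78-fold in DProP (0.83 ± 0.11), and was not called in DEP or Mix. SLC7A1 (chr13:29509414-29595688), the arginine and lysine importer, was at 54.2 and 55.3 CPM in vehicle, 64.4 and 61.5 in DEP, 79.5 and 80.8 in DProP, 91.5 and 99.3 in DPP, and 67.0 and 60.3 in Mix. All treated libraries lay above vehicle, and those of DPP above all others. It rose by 0.80 ± 0.07 in DPP and 0.55 ± 0.07 in DProP. In Mix the call (0.22 ± 0.07, adjusted p = 0.0437) was lost without vehicle 1, vehicle 2 or Mix 1 (0.147, 0.105 and 0.307).

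SLC38A2 (SNAT2), a sodium-coupled importer of small neutral amino acids, followed the same order. It was at 84.2 and 82.7 CPM in vehicle, 89.8 and 94.4 in DEP, 121 and 119.8 in DProP, 126 and 142 in DPP, and 99.4 and 94.0 in Mix. It rose by 0.69 ± 0.07 in DPP and 0.53 ± 0.07 in DProP (adjusted p = 2.01e-05 and 0.000179, edgeR). The Mix call (0.21 ± 0.07, adjusted p = 0.0434) ended on leaving out vehicle 1, vehicle 2, Mix 1 or Mix 2 (0.0629 to 0.234). SLC7A5 (LAT1), the large neutral amino acid exchanger, was at 153 and 161 CPM in vehicle, 141 and 126 in DEP, 177 and 173 in DProP, 175 and 192 in DPP, and 145 and 139.7 in Mix. DEP and Mix lay below vehicle and DProP and DPP above it. The rise in DPP (0.23 ± 0.07, adjusted p = 0.023) ended without vehicle 1 or DPP 2 (0.123 and 0.155). The fall in DEP (by 0.23 ± 0.07, adjusted p = 0.0339) ended without vehicle 1, vehicle 2 or DEP 2 (0.0549, 0.147 and 0.248) and became a difference of 0.0125 after the GC and length correction. Its near-identical pseudogene SLC7A5P2 held 70.5% as many counts as SLC7A5, so the share of reads that belongs to each is uncertain. SLC7A5P2 was called higher in DEP, DProP and DPP, by 0.26, 0.42 and 0.49.

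SLC3A2 (CD98hc), the heavy chain that LAT1 needs, was called in DProP (0.17 ± 0.06, adjusted p = 0.0444, edgeR) and lost the call without vehicle 1, vehicle 2 or DProP 1 (0.159, 0.0856 and 0.355). SLC1A4 (chr2:64988479-65023865), an exchanger of alanine, serine and cysteine, fell in all 4 treatments. It was at 53.6 and 58.3 CPM in vehicle, 33.2 and 36.1 in DEP, 31.4 and 36.2 in DProP, 28.9 and 31.2 in DPP, and 38.8 and 41.2 in Mix. Every treated library lay far below vehicle. It fell by 0.90 ± 0.09 in DPP, 0.73 ± 0.09 in DProP, 0.69 ± 0.09 in DEP and 0.48 ± 0.09 in Mix (adjusted p = 1.79e-05, 0.000115, 0.000275 and 0.00263), and these calls held under every alternative run.

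Among the genes of tRNA charging, WARS1 and IARS1, the synthetases for tryptophan and isoleucine, rose in all 4 treatments. WARS1 was at 43.6 and 46.3 CPM in vehicle, 58.9 and 57.5 in DEP, 63.0 and 63.2 in DProP, 70.4 and 74.3 in DPP, and 55.4 and 53.9 in Mix. The groups did not overlap, and their order was vehicle, Mix, DEP, DProP and DPP, the order also seen for GDF15. The rise was 0.69 ± 0.06 in DPP, 0.49 ± 0.06 in DProP, 0.37 ± 0.06 in DEP and 0.28 ± 0.06 in Mix (adjusted p = 1.08e-05, 0.000158, 0.0015 and 0.0079, edgeR), and the Mix call ended without vehicle 1 or Mix 1 (0.0525 and 0.0612). IARS1 was at 84.9 and 88.4 CPM in vehicle, 109 and 103 in DEP, 125 and 124 in DProP, 129.7 and 148 in DPP, and 109.8 and 101 in Mix. It rose by 0.68 ± 0.07 in DPP, 0.52 ± 0.07 in DProP, 0.29 ± 0.07 in DEP and 0.28 ± 0.07 in Mix. Its DEP call ended without vehicle 1 or DEP 1 (0.0755 and 0.109), and its Mix call without vehicle 1 or Mix 1 (0.0854 and 0.141).

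CARS1, the cysteine enzyme, rose in DPP by 0.33 ± 0.07 (adjusted p = 0.00327, edgeR), a call that held under every alternative run. CARS1 in DProP, GARS1 (glycine) in DProP and DPP, and EPRS1 (glutamate and proline) in DPP were called higher by 0.19 to 0.25 and each lost the call without vehicle 1. The CARS1 call in DProP also ended without vehicle 2 or DProP 1, that of GARS1 in DProP without DProP 1 or DProP 2, and those of GARS1 and EPRS1 in DPP without DPP 2 (adjusted p over all these cases up to 0.288). The reverse held for NARS1, the asparagine enzyme, and SARS1, the serine enzyme. NARS1 was at 272 and 257 CPM in vehicle, 230.0 and 216 in DEP, 225 and 222 in DProP, 253 and 263 in DPP, and 228 and 208 in Mix. DEP, DProP and Mix lay below vehicle, while DPP overlapped it. NARS1 was called lower in DEP, DProP and Mix (fell by 0.25, 0.24 and 0.28, each ± 0.06). Each of these calls ended without vehicle 1 (0.0863, 0.0704 and 0.0553). They also ended without DEP 2 (0.123), DProP 1 (0.0543), DProP 2 (0.0749) and Mix 2 (0.0701) in their own comparison. SARS1 was called lower in DProP alone (fell by 0.20 ± 0.06, adjusted p = 0.0175), and that call ended without vehicle 2, DProP 1 or DProP 2 (0.103, 0.0876 and 0.0823). AARS1 and MARS1, the alanine and methionine enzymes, and XPOT, which exports tRNA from the nucleus, were not called against vehicle.

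Other settings ended further calls against vehicle. With only the compared groups fitted these were JDP2 and GARS1 in DPP, CARS1, GARS1, PYCR1, SARS1 and SLC3A2 in DProP, SLC7A5 in DEP, and ASNS, SLC7A1 and SLC38A2 in Mix (adjusted p = 0.0504 to 0.106). Limma-voom ended STC2 in DPP, SLC3A2 in DProP, MTHFD2 in DEP and SLC7A1 in Mix (0.0507 to 0.0638), and DESeq2 ended STC2 in DPP (0.0758). The GC and length correction ended ATF5 in DPP, PPP1R15A and SHMT2 in DEP, and SLC38A2 and IARS1 in Mix (0.0652 to 0.353). Fitting with no filter ended GARS1 and SLC3A2 in DProP and SLC7A1 in Mix (0.0552 to 0.0644). A replicate block ended SLC3A2 in DProP and SLC7A1 and SLC38A2 in Mix (0.0558 to 0.0586).

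**Figure D3:**
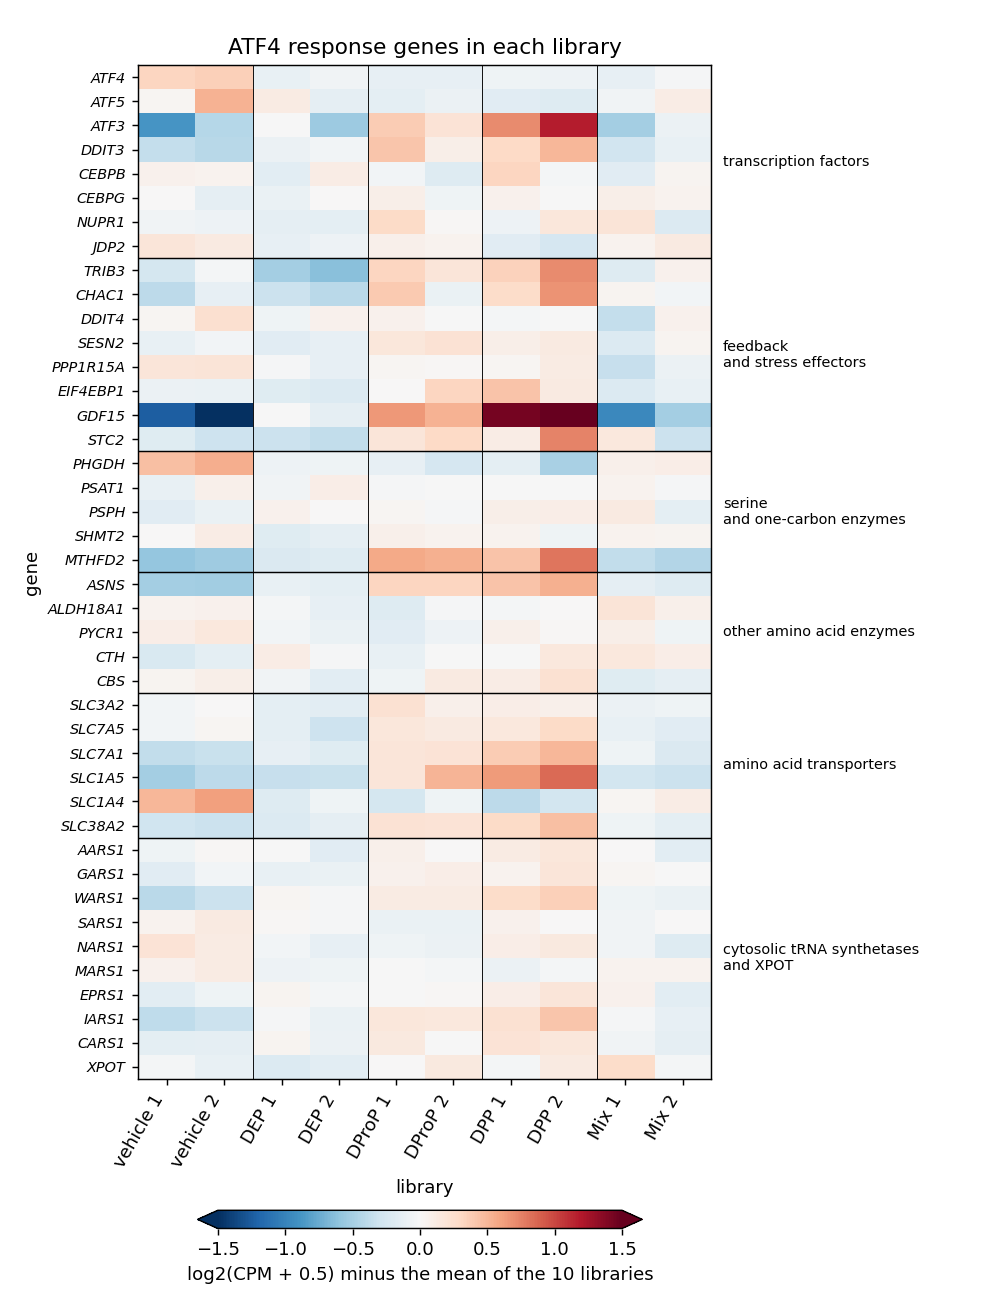
Colour is log2(CPM + 0.5) minus the gene's mean over the 10 libraries, with genes as lines grouped by role and libraries as columns, and the scale ends at -1.5 and 1.5. The DPP columns are red for most stress effectors, transporters and synthetases, while ATF4, PHGDH and SLC1A4 are reddest in the vehicle columns.

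Set against one another at the same labelled dose, the treatments separated into DPP and DProP above DEP and Mix for a core of members. Among the 4 treated groups 15 members differed (edgeR, adjusted p under 0.05), where 12.4% of all genes did. DPP had the highest mean in 13 of these 15, DProP in 1 (SLC3A2) and Mix in 1 (SLC1A4). Among all genes called in that test DPP was highest in 27.3% and Mix in 54.7%. Over all 42 members DPP had the highest treated mean in 26, Mix in 10, DProP in 5 and DEP in 1. Among all genes tested DPP was highest in 28.0% and Mix in 31.9%. Averaged over the members after centring each gene on its mean, log2 levels were 0.16 and 0.25 in DPP, 0.10 and 0.08 in DProP, -0.08 and -0.08 in Mix, -0.10 and -0.14 in DEP, and -0.13 and -0.07 in vehicle. DPP 2 was the higher DPP library for GDF15, ATF3, TRIB3, CHAC1, MTHFD2 and SLC1A5. The summed neuron markers were lowest in DPP, though NEFL was highest there. The summed endothelial markers, mostly CLDN5, were lower in DPP and DProP than in DEP and Mix. The part of these markers in the differences between treatments was not tested.

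All 6 pairs of treatments were compared, and each p is adjusted over all genes within its pair unless said to be over the 6 pairs. DPP exceeded DEP in 12 members and was below it in none, where 1.36% of all genes were called higher and 1.58% lower. GDF15 differed 3.58-fold (log2 1.84 ± 0.21, adjusted p = 0.0011, edgeR; 0.000714 over the 6 pairs), SLC1A5 2.16-fold (1.11 ± 0.11, 0.000879), and SLC7A1 1.51-fold (0.60 ± 0.07, 0.00106). SLC38A2 differed by 0.54 ± 0.07 (0.00144), MTHFD2 by 0.85 ± 0.11 (0.00215), ASNS by 0.63 ± 0.09 (0.00264) and TRIB3 by 1.28 ± 0.19 (0.00478). ATF3 (1.40), CHAC1 (0.96), SLC7A5 (0.45), IARS1 (0.39) and WARS1 (0.31) made up the rest. Over the 6 pairs, adjusted p for the 12 ran from 0.000356 to 0.0244, and SLC3A2 also passed (0.0413). Without DEP 1, 7 differed, without DEP 2, 4, and without DPP 2, 6. The calls of GDF15, SLC1A5, SLC38A2 and SLC7A1 held under every alternative run.

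**Figure D4:**
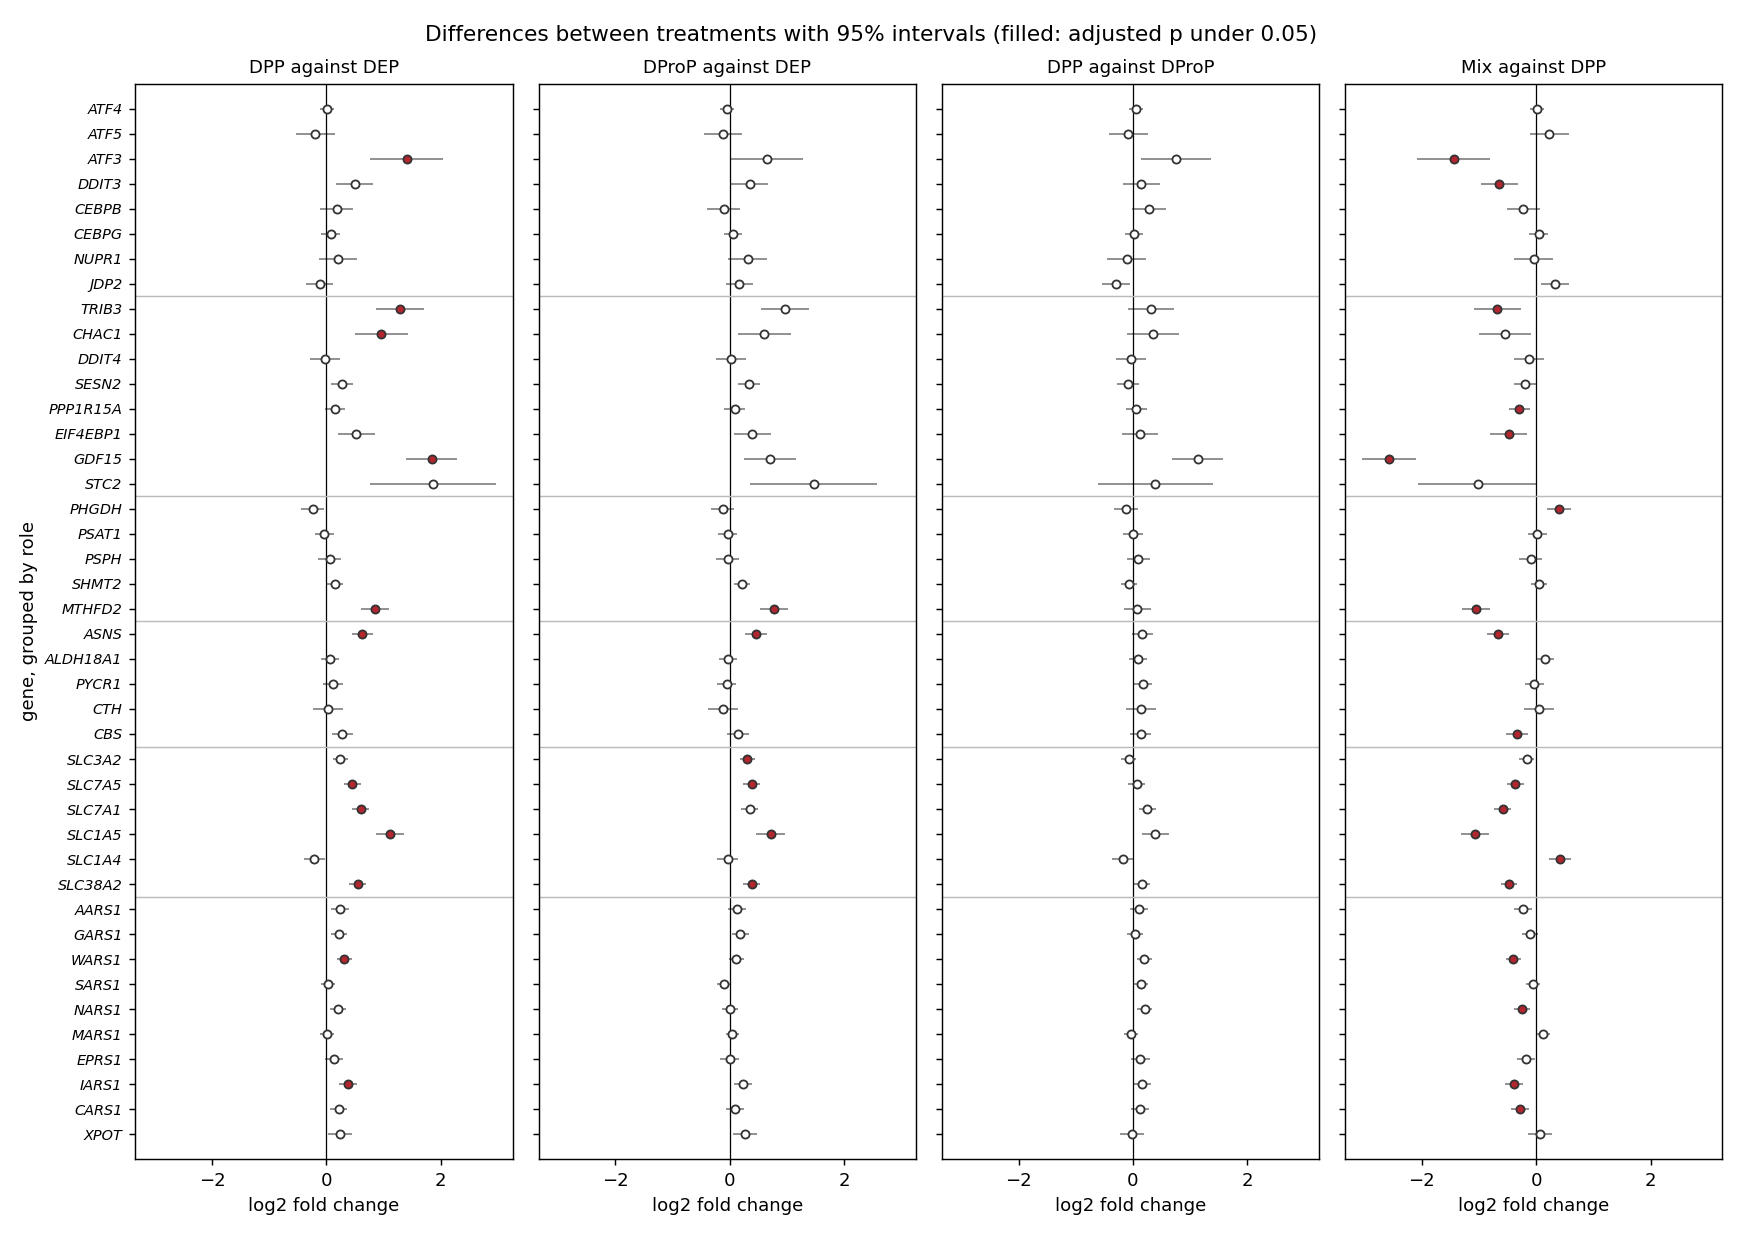
Each panel plots the log2 fold change of the 42 genes between a pair of treatments (x axis, the same in all panels; lines are 95% intervals, filled points passed an adjusted p of 0.05 in edgeR). Filled points lie to the right for DPP and DProP against DEP, none is filled for DPP against DProP, and 17 of the 19 filled points for Mix against DPP lie to the left.

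DProP exceeded DEP in 6 members and was below it in none, where 0.39% of all genes were called higher and 0.134% lower. These were MTHFD2 (0.77 ± 0.11, adjusted p = 0.0132, edgeR), SLC1A5 (0.72 ± 0.11, 0.0192), ASNS (0.47 ± 0.09, 0.0386), SLC7A5 (0.39 ± 0.07, 0.0322), SLC38A2 (0.39 ± 0.07, 0.0294) and SLC3A2 (0.31 ± 0.06, 0.0481). Over the 6 pairs their adjusted p ran from 0.00292 to 0.0132, and TRIB3, SESN2 and SLC7A1 also passed (0.0154, 0.0452 and 0.0140). None of the 6 held when single libraries were left out. Without DEP 1, DEP 2 or DProP 2 no member differed, and without DProP 1, 2 did.

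DPP and DProP differed in no member by edgeR with the settings used throughout, where 0.262% of all genes were called. At an unadjusted p under 0.05 there were 10 members, limma-voom called 1 and DESeq2 2. GDF15 was nearest, at 1.13 log2 higher in DPP with a 95% interval of 0.69 to 1.57 and an adjusted p of 0.0504 (0.00926 over the 6 pairs). Without DPP 1 it was the 1 member called (1.35, adjusted p = 0.0228). Limma-voom (adjusted p = 0.0263) and DESeq2 (5.86e-05) called it, and DESeq2 also called SLC7A1 (0.0452). EdgeR called GDF15 with no filter (adjusted p = 0.0332), with the stricter filter (0.0202) and after the GC and length correction (0.0397). The interval of SLC1A5 ran from 0.15 to 0.64 without a call.

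The Mix group was separated by the test from DProP and DPP but not from DEP. Mix and DEP differed in no member by edgeR, where 3.86% of all genes were called. At an unadjusted p under 0.05 there were 7 members, limma-voom called 0 and DESeq2 3 (GDF15, SHMT2 and XPOT). GDF15 was 0.73 log2 lower in Mix than in DEP, with a 95% interval from -1.20 to -0.26 (adjusted p = 0.0864, and 0.0111 with only the compared groups fitted). TRIB3 was 0.60 higher in Mix, with an interval from 0.18 to 1.03 (adjusted p = 0.112). Without Mix 2, 1 member differed (XPOT, 0.46, adjusted p = 0.0319).

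Mix was below DProP in 8 members and above it in none, where 2.53% of all genes were called lower and 4.36% higher. GDF15 was lower by a difference of -1.44 ± 0.21 (adjusted p = 0.00298, edgeR), MTHFD2 by -0.98 ± 0.11 (0.000875), SLC1A5 by -0.67 ± 0.11 (0.00515) and ASNS by -0.50 ± 0.09 (0.00564), and these 4 held under every alternative run. The transporters SLC7A1, SLC38A2, SLC7A5 and SLC3A2 made up the rest, at -0.33 to -0.23. Over the 6 pairs adjusted p for the 8 ran from 0.000754 to 0.0495. The call of SLC3A2 ended with only the compared groups fitted (0.0702). Without DProP 1, 4 differed, without DProP 2, 5, and without Mix 1, 5.

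Mix was below DPP in 17 members and above it in 2, where 6.82% of all genes were called lower and 10.4% higher. GDF15 in Mix was 0.168 times its level in DPP (log2 -2.57 ± 0.21, adjusted p = 3.8e-05, edgeR; 0.000175 over the 6 pairs). SLC1A5 and MTHFD2 were at 0.477 and 0.481 times the DPP level, ATF3 at 0.367, ASNS at 0.628, TRIB3 at 0.625 and DDIT3 at 0.640. PHGDH (0.40 ± 0.09) and SLC1A4 (0.41 ± 0.09), both lower than vehicle in all treatments, were the 2 that were higher in Mix. Adjusted over the 6 pairs, TRIB3, PPP1R15A and EIF4EBP1 were no longer past the threshold (0.0642, 0.0674 and 0.090). Among other settings, fitting only the compared groups ended PPP1R15A and EIF4EBP1 (0.0612 and 0.0627), and no filter ended EIF4EBP1 (0.0541). Without DPP 2, 11 differed, and without Mix 2, 12. The calls of GDF15, ASNS, IARS1, MTHFD2, SLC1A5, SLC38A2, SLC7A1, SLC7A5 and WARS1 held under every alternative run.

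Genes upstream of ATF4 were also called in both directions. Of 17 genes for eIF2 kinases, eIF2, eIF2B and their regulators, 5 were higher and 2 lower in DPP than in vehicle, 4 and 1 in DProP, 2 and 1 in DEP, and 1 and 0 in Mix. Of all genes, 16.7% were called higher and 19.5% lower in DPP, 14.7% and 17.5% in DProP, 10.1% and 13.5% in DEP, and 9.71% and 10.7% in Mix. EIF2AK3 (PERK), the kinase of the endoplasmic reticulum, was at 18.2 and 18.4 CPM in vehicle and 26.6 and 23.6 in DPP, a rise of 0.45 ± 0.09 (adjusted p = 0.00175, edgeR). OMA1, the mitochondrial protease that cleaves DELE1, rose in all 4 treatments, by 0.57 in DPP, 0.53 in DProP, 0.44 in DEP and 0.39 in Mix. DELE1, which passes mitochondrial stress to an eIF2 kinase, fell by 0.23 in DPP and by 0.17 in DProP. EIF2S2, the beta subunit of eIF2, rose by 0.49 in DPP.

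Of 18 further reported ATF4 targets, 4 were higher and 4 lower in DPP, 5 and 2 in DProP, 3 and 5 in DEP, and 0 and 2 in Mix. FGF21 (no count) and CPA4 (at most 0.191 CPM) were not among the 18. The DPP counts were near the 16.7% and 19.5% of all genes called higher and lower. For DProP these shares were 14.7% and 17.5%, for DEP 10.1% and 13.5%, and for Mix 9.71% and 10.7%. As shares of the 18, the calls higher in DProP and lower in DEP stood above them. CDKN1A, the cell-cycle inhibitor p21, was at 111 and 112 CPM in vehicle, 157 and 146 in DEP, 151.0 and 149 in DProP, 189 and 195 in DPP, and 119.5 and 128 in Mix. It rose by 0.78 ± 0.06 in DPP (adjusted p = 4.15e-06, edgeR) and was 0.34 higher in DPP than in DEP (adjusted p = 0.0108, and 0.00759 over the 6 pairs). The death receptor gene TNFRSF10B and the angiogenic factor gene VEGFA rose in DPP by 0.65 and 0.79. The glycine transporter gene SLC6A9 fell by 0.55.

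In DPP, neighbouring stress programmes were called in both directions. All counts in DPP stand beside 16.7% of all genes higher and 19.5% lower. For DProP these shares were 14.7% and 17.5%, for DEP 10.1% and 13.5%, and for Mix 9.71% and 10.7%. In the IRE1 and ATF6 arm of the unfolded protein response (17 genes) 2 were higher and 3 lower in DPP, 0 and 4 in DProP, 0 and 5 in DEP, and 2 and 2 in Mix. The chaperone gene CALR was at 440 and 461 CPM in vehicle and between 287 and 328 in all treated libraries, a fall of 0.59 ± 0.06 in DPP (adjusted p = 3.93e-05, edgeR). CRELD2 fell by 0.47 in DPP and XBP1 rose by 0.28. Of 8 genes of the mitochondrial unfolded protein response, 4 were higher in DPP and 1 lower, with HSPA9 (mortalin) at 0.32 and CLPP at -0.29. Of 12 further cytosolic synthetases 4 were higher and 2 lower in DPP (FARSB rose by 0.38 and RARS1 by 0.28), and of 17 mitochondrial synthetases 5 and 2. Of 13 genes of mTORC1 and amino acid sensing 4 were higher and 3 lower in DPP, among them SESN1 (0.51) and FNIP1 (0.46), and TSC2 (-0.49).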

How the data were processed

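Gene counts of the 10 libraries were used as deposited by the authors: whole-number read counts per gene, not normalized. Per the submitters' processing notes the tools were Trimmomatic 0.38, HISAT2 2.1.0, StringTie 2.1.3b and edgeR 4.0.9 on GRCh38, and no source used here states the strand setting. Libraries were made from total RNA with a SureSelect RNA Direct kit per the labels' protocols. CPM are not divided by gene length, so levels are not compared between genes.

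Counts were filtered by expression per group (19465 genes kept, 17765 had no count), scaled by TMM and fitted with edgeR 4.0.16 (R 4.3.3, robust quasi-likelihood) with 1 mean per group over all 10 libraries and 5 residual degrees of freedom. P-values were adjusted by Benjamini-Hochberg over all genes tested. The spread between the libraries of a group was 9.40% (square root of edgeR's common dispersion), which gave a median 95% interval of ± 0.26 (log2) for DPP against vehicle. An exact permutation test with 2 against 2 libraries cannot go below p = 0.333. Read counts of replicates differed by more than sampling noise (chi-square per degree of freedom 11.3 to 21.7), so all 10 libraries were counted. The code was tested on simulated data.

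Members and lists were chosen with earlier results of these data known. Values per library are given for ATF4 and for called members with a mean of 1 CPM or more among the 8 largest changes against vehicle or the 6 largest between 2 treatments, with others where a role is described, and up to 4 genes with the smallest p are named per wider list. Alternatives were other scalings and filters, limma-voom (limma 3.58.1), DESeq2 1.42.0, the compared groups alone, a replicate block, a lowess GC and length correction (span 0.3), and leaving out each library. Positions and promoters are from RefSeq GRCh38.p14, where 44698 of 46427 gene identifiers matched.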

Additional observations from a re-analysis of the deposited data

How the results depend on the processing

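Counts of called members moved by over 1.5 times as follows. With library size alone, DEP had 12 higher and 3 lower, DProP 24 and 3, Mix 13 and 3, and DPP 3 lower. With the GC and length correction, 4 were lower in DEP, 10 differed between DProP and DEP, 1 between DProP and DPP, 1 between Mix and DEP, and 25 among the treated groups. With only the compared groups fitted, 2 were higher in Mix, 10 differed between DProP and DEP and 1 between Mix and DEP. DESeq2 gave 11 for DProP and DEP, 2 for DProP and DPP, 3 for Mix and DEP, 13 for Mix and DProP, and 26 among the treated groups. DProP and DPP differed in 1 member with no filter, with the stricter filter and with limma-voom, and the stricter filter gave 23 among the treated groups. Leaving out each library gave 2 to 4 higher and 3 to 5 lower in DEP, 9 to 13 and 3 to 5 in DProP, 11 to 17 and 3 to 4 in DPP, and 1 to 5 and 3 to 5 in Mix. Between treatments it gave 0 to 2 (DProP and DEP), 4 to 14 (DPP and DEP), 0 to 1 (DProP and DPP), 0 to 1 (Mix and DEP), 4 to 6 (Mix and DProP), 11 to 16 (Mix and DPP) and 11 to 17 among the treated groups. Under the GC and length correction SLC7A5 in DEP turned from -0.23 to 0.0125 and PYCR1 in DProP from -0.25 to 0.00377. The cause of these shifts was not tested, apart from fewer libraries on leaving one out. Replicate numbers did not pair the libraries: same-numbered libraries' deviations correlated at -0.106 to 0.0867 over 10 pairs of groups. With the replicate block, 17 members were higher and 5 lower in DPP and 4 differed between DProP and DEP, and no count moved by over 1.5 times. Genes under about 1 CPM, such as STC2, have intervals too wide to place a treatment.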
